A study of Trachemys scripta with 24 samples.

Results

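The miRNAs miR-1, miR-133 and miR-206, known as the muscle miRNAs, were followed in plasma of the pond slider (*Trachemys scripta*) around surgical gonadectomy. Members were taken by name alone, as every entry of the painted turtle *Chrysemys picta* (prefix cpi) whose family number is that of miR-1, miR-133 or miR-206, both arms and any letter or copy. The rule gave 16 of the 528 cpi entries, among 1994 entries in all, with 6 of miR-1, 8 of miR-133 and 2 of miR-206. The mature sequences of these entries were not used here.

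Small RNA was sequenced in plasma of 8 female turtles at 3 time points, 24 h pre-surgery (T0), 2.5 h post-surgery (T1) and 36 h post-surgery (T2), with 8 libraries at each. Per the methods of the study, the turtles were clinically healthy, sexually mature patients, housed singly outdoors, and blood was drawn from the cervical sinus into EDTA tubes. Dexmedetomidine, ketamine, midazolam and alfaxalone were injected into muscle to induce anaesthesia, and the reversal agents atipamezole and flumazenil were given partly into a vein and partly into the pectoral muscle. T0 preceded these injections and the operation, an endoscope-assisted removal of the ovaries through the prefemoral fossa, while T1 and T2 followed both, so that surgery, anaesthesia and injections cannot be told apart. Food was already withheld when T0 was drawn, and the turtles fed again after the operation and before T2, so feeding also changed with time. Whether any had fed by T1 is not stated. There was no group without surgery, so time and surgery cannot be told apart either. Libraries are named below by their label (t31 to t54). No label ties a library to a turtle, and libraries were therefore not paired. The p-values measure the spread between the libraries of different turtles. Tests between time points treat the groups as independent, although the same 8 turtles gave all 3.

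In mammals, miR-1 and miR-133 are transcribed together from shared loci in heart and skeletal muscle, and miR-206 is made with a member of the miR-133 family in skeletal muscle. miR-1 and miR-206 share a seed, the stretch near the 5′ end that pairs with target mRNAs, whereas the seed of miR-133 differs. miR-1 and miR-206 are known for promoting the differentiation of muscle precursors and miR-133 for the proliferation of these cells, and in mammals all 3 families leak into plasma when muscle fibres are injured. In plasma, more release, slower clearance and a change in other RNA of the library cannot be told apart.

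The depth of the libraries varied widely. Total counts, with each entry taken once, ranged from 22648 in T2 replicate t39 to 2042924 in T2 replicate t36, and the median was 512310 for T0, 496379 for T1 and 418194 for T2. Totals of the cpi entries ran from 5837 to 515184. Levels are given in CPM, which are counts scaled to a common total of the entries kept by the filter on low counts and adjusted by the TMM factors of edgeR, so that 1 count stood for 0.545 to 33.8 CPM depending on the library. That total ran over entries of all 4 species, in t49 for example 199116 counts against 50811 on cpi entries. CPM therefore read lower than the shares of cpi counts given below. Mature miRNAs are of nearly equal length, and levels of different families are compared on this scale without correction for length. The paper warns that Illumina sequencing can distort measured miRNA levels against their true abundance. Orders and ratios of families below are therefore those of counts, and may differ from those in plasma. Molecules were not tagged, and the intervals given for shares cover counting error only. Before any comparison, 3 libraries stood apart by the members themselves, namely T0 replicates t46 and t49 and T1 replicate t44. They had 215713, 50811 and 50864 cpi counts, against a median of 112154 over the 24 libraries. None of these is at an end of the range, but t49 and t44 were well below the median. Results that rest on these libraries are given with and without them.

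The 16 entries held 31936 counts over the 24 libraries. miR-206 held 50.2% of them with 16042 counts, miR-1 held 41.8% with 13359, and miR-133 held 7.94% with 2535. Of the 16 entries, 5 were kept by that filter, namely cpi-mir-1a-1-5p, cpi-mir-1a-2-5p, cpi-mir-133a-1-5p, cpi-mir-133a-2-5p and cpi-mir-206-5p. These 5 held 97.7% of the members' counts. Among all 1994 entries, 690 passed, which is 34.6%, and among cpi entries 198 passed, which is 37.5%. By the median over the 24 libraries, cpi-mir-206-5p ranked 41 of the 528 cpi entries with 775.7 CPM. The copies cpi-mir-1a-2-5p (71.4 CPM) and cpi-mir-1a-1-5p (69.2 CPM) ranked 109 and 115, and cpi-mir-133a-1-5p (52.5 CPM) and cpi-mir-133a-2-5p (38.4 CPM) lay below them, the last of these at rank 140.

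**Figure D1:**
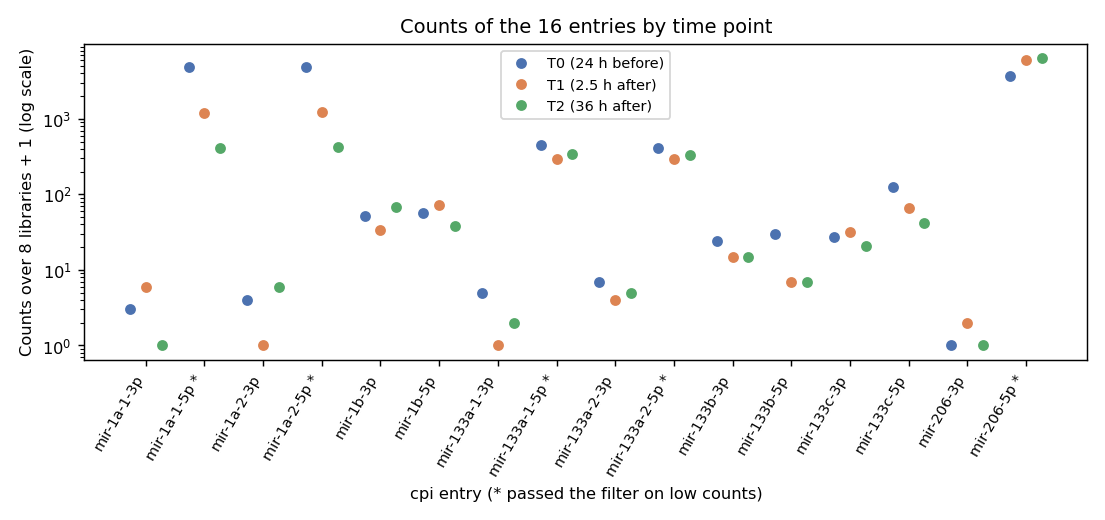
Counts of each of the 16 entries summed over the 8 libraries of T0, T1 and T2 (counts + 1, log scale), with the entries that passed the filter marked by an asterisk. The entries of miR-1a and miR-206 on the arm named 5p hold most counts, 3710 to 6342 per time point for cpi-mir-206-5p, while their 3p names hold at most 5.

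The other 11 entries had between 1 and 232 counts over all libraries. cpi-mir-133c-5p was the highest of them, and of its counts 66 were in T0 replicate t49, 65 at T1 and 41 at T2. cpi-mir-1b-5p had 164 counts in all and cpi-mir-1b-3p had 151. Both entries of miR-133b, the form that lies beside miR-206 in mammals, were low, with 41 counts on 5p and 51 on 3p. By median CPM, cpi-mir-133c-5p went from 2.03 at T0 to 18.5 at T1 and 7.86 at T2. For cpi-mir-1b-5p the medians were 4.97, 19.4 and 7.42. For both of these entries 8 of 8 T1 libraries lay above the median of T0. Counts were near the floor, since each had 3 of 8 T0 libraries at 0. Under the 3p names, cpi-mir-1b-3p had medians of 12.8, 5.75 and 10.7 CPM, with 2 of 8 T1 libraries above the median of T0. For cpi-mir-133c-3p they were 5.25, 7.24 and 2.57 CPM, with 6 of 8. None of these entries was tested, and the ranges of T0 and T1 overlapped. The highest T0 libraries were again t49 and t46, with 380.6 and 49.8 CPM of cpi-mir-133c-5p and 40.4 and 28.3 CPM of cpi-mir-1b-5p.

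The arm names were those of the deposited table, in which none of the 16 entries carries a miRBase mark. The arm named 5p had 99.9% of the counts of both miR-1a hairpins, 99.5% and 98.8% of those of the miR-133a hairpins, and 16041 of the 16042 counts of miR-206. In vertebrates the abundant strand of these hairpins is the one on the 3p arm. Over 48 cpi hairpins of other well-known families and of these, 46 had more counts under the name of the usually minor arm, and the exceptions were mir-24-2 and mir-29a-2. The 6 listed hairpins of the members were among the 46. Which strand a name stands for was therefore not settled, and the entries are called here by their deposited names. The low hairpins mir-1b, mir-133b and mir-133c were less uneven, with 52.1%, 44.6% and 75.1% of their counts on 5p.

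The copies of a hairpin could not be told apart by these counts. cpi-mir-1a-1-5p held 49.6% (Wilson 95% interval 48.7 to 50.4) of the counts of both miR-1a copies, and the interval of this share held 50% in 24 of 24 libraries. In T0 replicate t46, for example, the copies had 2987 and 3024 counts. cpi-mir-133a-1-5p held 50.9% (48.8 to 53.1) of the miR-133a counts, and the interval held 50% in 19 of the 22 libraries with a count. Values of the copies are therefore not independent of each other. The entries of the other 3 species also counted nearly the same number of reads. miR-206 had 16042 counts on cpi entries, 16067 on those of *Anolis carolinensis*, 16045 on those of *Alligator mississippiensis* and 16083 on those of *Ophiophagus hannah*. For miR-1 the totals of these species were 13359, 13191, 13212 and 13225, and for miR-133 they were 2535, 2483, 2506 and 2557. In replicate t46 the miR-1 total was 6059 on cpi entries and between 6043 and 6053 on the others. Entries of different species can count the same reads, so these totals are no separate support for the high libraries below.

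At T0, the summed miR-1 entries had 35.4 CPM in the lowest library (t37), a median of 78.0 CPM and 20604 CPM in the highest (t49). Replicate t46 followed with 5913 CPM, and the other 6 libraries had at most 172 CPM. At T1 the lowest library (t50) had 67.2 CPM, the median was 226 CPM and the highest (t44) had 8351 CPM, while the next one, t38, had 605 CPM. At T2 the lowest library (t51) had 36.9 CPM, the median was 209 CPM and the highest (t36) had 282 CPM. The 3 time points overlapped, and T2 was the one without a high library. The mean at T0 was 3373 ± 7256 CPM (SD, n = 8), while T1 had 1289 ± 2861 CPM and T2 had 180 ± 90.1 CPM, so that the mean was highest at T0 and the median lowest there. Without t49 the mean at T0 was 911 ± 2206 CPM (n = 7), and without t44 that at T1 was 280 ± 218 CPM (n = 7). Above the median of T0 were 7 of 8 libraries at T1 and 6 of 8 at T2.

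miR-133, the partner of miR-1 at its loci, was the lowest of the 3 families. At T0 it had 8.21 CPM in the lowest library (t52), a median of 61.4 CPM and 2330 CPM in the highest (t49), with 504.5 CPM in t46. At T1 the lowest library (t38) had 49.3 CPM, the median was 158 CPM and the highest (t44) had 446 CPM. At T2 the lowest (t39) had 33.8 CPM, the median was 112 CPM and the highest (t36) had 207.7 CPM. The groups overlapped, and 6 of 8 libraries at T1 and 7 of 8 at T2 lay above the median of T0. The mean at T0 was 387 ± 802 CPM (SD, n = 8), while T1 had 188 ± 134 CPM and T2 had 112 ± 52.1 CPM. Without t49 the mean at T0 was 109 ± 176 CPM (n = 7). Single counts weighed heavily here, since replicate t39 had 1 count of miR-133 and replicate t52 had 2.

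miR-206, the family made in skeletal muscle and little in heart, was the most abundant by its median at each time point and by total counts, though not at T0 by its mean or its counts, where miR-1 was higher. At T0 it had 65.7 CPM in the lowest library (t52), a median of 887 CPM and 2607 CPM in the highest (t49). At T1 the lowest library (t53) had 180 CPM, the median was 631 CPM and the highest (t44) had 16924 CPM, with 2712 CPM in t41 as the next. At T2 the lowest library (t54) had 216 CPM, the median was 1039 CPM and the highest (t45) had 2181 CPM. The groups overlapped over nearly their whole range apart from t44. Above the median of T0 were 2 of 8 libraries at T1 and 5 of 8 at T2. The mean at T0 was 1060 ± 899 CPM (SD, n = 8). T1 had 2873 ± 5729 CPM, or 866 ± 833 CPM (n = 7) without t44, and T2 had 1205 ± 690 CPM.

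**Figure D2:**
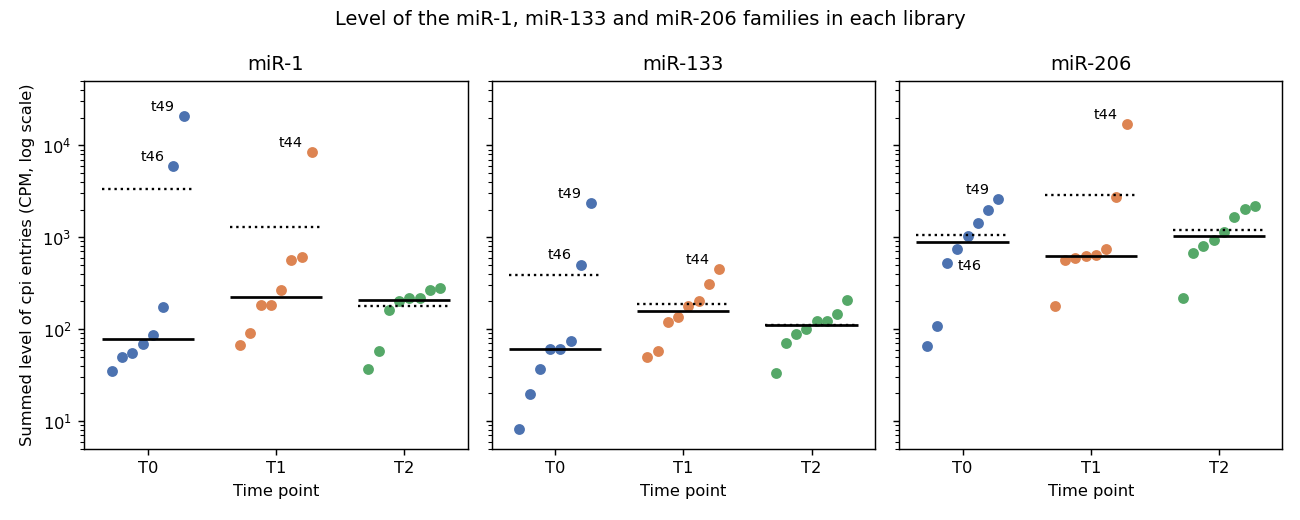
Summed level of the cpi entries of miR-1, miR-133 and miR-206 in each of the 24 libraries (CPM, log scale) by time point, with 1 point per library, a solid line at the median and a dotted line at the mean of 8 libraries. For miR-1 the mean at T0, 3373 CPM, lies far above the median of 78.0 CPM because of t46 and t49, while at T2 the libraries stay between 36.9 and 282 CPM.

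Within libraries miR-206 was mostly the highest family and miR-133 mostly the lowest, but the order was not the same in all. miR-206 had more counts than miR-133 in 23 of 24 libraries, and miR-1 had more than miR-133 in 18. miR-206 had more counts than miR-1 in 20 libraries, both had 49 counts in t54, and miR-1 had more in t46, t49 and t53. In t53 the difference was small, with 174 counts of miR-1 and 170 of miR-206. In t46 and t49 miR-206 was at 0.127 times the level of miR-1, whereas in t44 it was at 2.03 times. Among the other 21 libraries this ratio ran from 0.977 (t53) to 28.5 (t33), with a median of 4.83. The high libraries of T0 therefore lay outside the range of the other libraries in this ratio, and t44 lay inside it.

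A library was said to show a burst of a family where its level was at least 10 times the median of the 24 libraries, and these values describe single libraries without a test. miR-1 had a burst in t44, t46 and t49, at 45.4, 32.1 and 112 times its median of 184 CPM. miR-133 had a burst only in t49, at 21.1 times its median of 111 CPM, while t46 was at 4.57 times and t44 at 4.04 times. miR-206 had a burst only in t44, at 21.8 times its median of 776 CPM, with t49 at 3.36 times and t46 at 0.965 times. By this limit t46 and t49 differed in miR-133, but their proportions were close. The ratio of miR-1 to miR-133 was 11.7 in t46 and 8.84 in t49, with the same 0.127 for miR-206 to miR-1, so that they differed mainly in level. In t44 the ratio of miR-1 to miR-133 was 18.7. No library had bursts of all 3 families.

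As shares of the cpi counts, miR-1 made up 7.03% (Wilson 95% interval 6.81 to 7.26) in t49, 2.81% (2.74 to 2.88) in t46 and 3.42% (3.27 to 3.58) in t44. These shares rest on 3573, 6059 and 1740 counts. miR-206 made up 6.93% (6.71 to 7.16) in t44, 0.890% in t49 and 0.356% in t46. miR-133 made up 0.795% in t49, 0.240% in t46 and 0.183% in t44. Sampling of few molecules before amplification is not covered by these intervals and was not tested. Together the 3 libraries held 85.1% of all miR-1 counts, 1014 of the 2535 miR-133 counts and 29.6% of the miR-206 counts, against 8.95% of all cpi counts.

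Single libraries with high values were not particular to these families. Among the 198 cpi entries that passed the filter, 16 had a highest library at least 10 times their median, which is 8.08%. The 5 members that passed were among the 16, and cpi-mir-1a-1-5p (147 times) and cpi-mir-1a-2-5p (146 times) ranked first and second. cpi-mir-133a-2-5p (23.7 times), cpi-mir-206-5p (21.8 times) and cpi-mir-133a-1-5p (17.6 times) ranked 8, 9 and 11. The filter itself needs counts in several libraries, so that no statement on all 16 members follows. Other entries had their highest value in the same library t44, such as cpi-mir-219-2-5p at 18.1 times, cpi-mir-2970-5p at 16.9 times and cpi-mir-99b-5p at 10.2 times its median. Others again were highest elsewhere, such as cpi-mir-9-1-3p at 134 times in t39, the library with the lowest total, and the liver miRNA entry cpi-mir-122-3p at 14.7 times in t32.

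**Figure D3:**
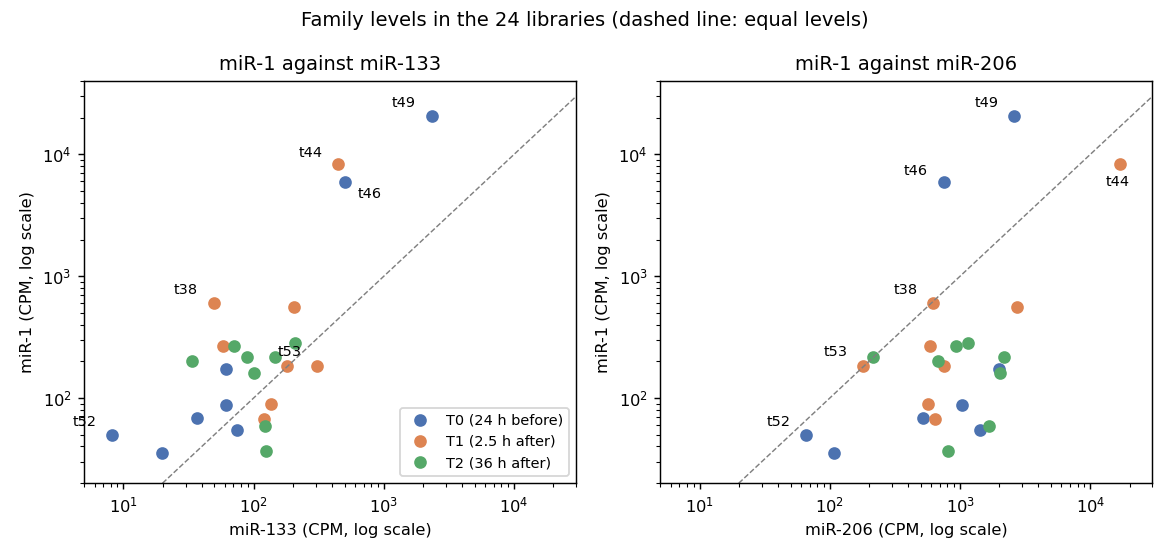
Level of miR-1 against miR-133 (left) and against miR-206 (right) in the 24 libraries (CPM, both axes on a log scale), with 1 point per library coloured by time point and a dashed line at equal levels. t44, t46 and t49 stand apart by miR-1 in both panels, while on the right t44 lies below the line at 16924 CPM of miR-206 and t46 and t49 lie above it.

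Correlations between families were computed within each time point on log2(CPM + 1), since libraries of different time points share turtles. At T0, miR-1 and miR-133 had r = 0.941 (n = 8, exact permutation p = 0.00176, adjusted p = 0.0158 over the 9 relations computed) and rho = 0.833 (exact permutation p = 0.0154, adjusted p = 0.0692). Without t46 and t49, which form a cluster of their own, r was 0.575 over 6 libraries, so this relation rests largely on them. At T1 the same pair had r = 0.395 (exact permutation p = 0.342, adjusted p = 0.440) and rho = 0.214 (exact permutation p = 0.619, adjusted p = 0.796), with r = -0.36 without t44 and t50. At T2 it had r = -0.16 (exact permutation p = 0.679, adjusted p = 0.764) and rho = 0.119 (exact permutation p = 0.793, adjusted p = 0.882), with r = 0.325 without t33 and t51. The families that are transcribed together in mammals were thus related at T0, largely through t46 and t49, and in these libraries not beyond the spread at T1 or T2.

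For miR-1 and miR-206, r was 0.527 at T0 (n = 8, exact permutation p = 0.129, adjusted p = 0.290) with rho = 0.738 (exact permutation p = 0.0458, adjusted p = 0.138), and r was 0.744 without t46 and t49. At T1, r was 0.838 (exact permutation p = 0.0214, adjusted p = 0.0963) with rho = 0.429 (exact permutation p = 0.299, adjusted p = 0.539). Without t44 and t50, the highest and the lowest T1 library in miR-1, r fell to 0.503. The part of t44 alone was not tested. At T2, r was -0.12 (exact permutation p = 0.784, adjusted p = 0.784) with rho = 0.0714 (exact permutation p = 0.882, adjusted p = 0.882), and r was -0.17 without t33 and t51.

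For miR-133 and miR-206 at T0, r was 0.729 (n = 8, exact permutation p = 0.0406, adjusted p = 0.122) with rho = 0.833 (exact permutation p = 0.0154, adjusted p = 0.0692). In this pair the value did not rest on the high libraries, with r = 0.964 over the 6 libraries without t46 and t49. Among these, t52 (2 counts of miR-133 and 16 of miR-206) and t37 (15 and 82 counts) were the lowest in both families. The part of these low libraries in the value was not tested. At T1, r was 0.455 (exact permutation p = 0.260, adjusted p = 0.440) with rho = 0.333 (exact permutation p = 0.428, adjusted p = 0.642), and r was -0.15 without t38 and t44. At T2, r was 0.384 (exact permutation p = 0.331, adjusted p = 0.440) with rho = 0.548 (exact permutation p = 0.171, adjusted p = 0.385), and r was 0.493 without t36 and t39. Whether a relation differed between time points was not tested.

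The comparison of T1 with T0 asked which members moved shortly after surgery. None of the 5 tested members passed the limits of the study, 0.1 for the adjusted p and 1 for the size of the log2 fold change, by edgeR's quasi-likelihood test, where 0.58% of all 690 entries passed in either direction. DESeq2 called none of the 5 and 2.35% of the entries it adjusted. Its default settings, used here, can replace single outlying counts in groups of 8 libraries. With p unadjusted and a limit of 0.05, it was 0 of the 5 members and 8.99% of all entries by edgeR. The log2 fold change was -1.43 for cpi-mir-1a-1-5p (standard error 1.23, adjusted p = 0.785 by edgeR, 95% interval -3.96 to 1.09), -1.41 for cpi-mir-1a-2-5p and near -1 for both miR-133a entries. The value for cpi-mir-206-5p was 1.44 ± 0.79 (standard error), with a 95% interval of -0.18 to 3.06 (adjusted p = 0.625 by edgeR). The median over the 5 members was -1.01 against 0.08 over all entries.

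These signs turned with single libraries. Without t49 the log2 fold change after surgery at T1 became 0.45 for cpi-mir-1a-1-5p, 0.50 for cpi-mir-1a-2-5p, 0.57 for cpi-mir-133a-1-5p and 0.79 for cpi-mir-133a-2-5p. Without t44 that of cpi-mir-206-5p was -0.30, and those of the miR-1a entries were -3.73 and -3.79. Without t46 and t49 together, left out for their high values, T0 kept its low libraries, and cpi-mir-1a-1-5p, cpi-mir-1a-2-5p and cpi-mir-133a-2-5p came out higher at T1 (adjusted p = 0.0322 each by edgeR), as 3.42% of all entries passed in that fit. Since the choice of libraries used the values compared, these p carry no test of the time points. A test on log2(CPM + 1), which gives a high library less weight, had the 4 entries of miR-1a and miR-133a higher at T1, by up to 1.20 in the mean, with exact permutation p between 0.312 for cpi-mir-133a-2-5p and 0.716 for cpi-mir-1a-1-5p. The smallest p such a test can reach with 8 against 8 libraries is 0.000155. By medians, cpi-mir-1a-1-5p had 34.9 CPM at T0 and 102 CPM at T1, and cpi-mir-133a-2-5p had 16.7 and 55.3 CPM. The ranges of cpi-mir-1a-1-5p, 8.21 to 10144 CPM at T0 and 23.5 to 4032 CPM at T1, overlapped.

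In the comparison of T2 with T0, cpi-mir-1a-1-5p and cpi-mir-1a-2-5p had the most negative values of the members, log2 fold changes of -4.57 and -4.44 with standard errors of 1.41 and 1.42. Neither passed the limit (adjusted p = 0.296 for both by edgeR), as no member and 0% of all entries did. Their unadjusted p of 0.00331 and 0.00435 by edgeR ranked 3 and 7 of the 690 entries, of which 8.26% had a p of at most 0.05. Those entries include copies and entries of other species that can count the same reads, so the ranks are not over separate miRNAs. DESeq2 called 0 members and 0.0502% of entries. The 95% interval of cpi-mir-1a-1-5p was -7.47 to -1.67. The test on log2(CPM + 1), another scale, gave it a mean difference of -0.97 (exact permutation p = 0.505, adjusted p = 0.954). For cpi-mir-1a-2-5p this difference was -0.63.

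The medians of these entries went the other way. cpi-mir-1a-1-5p had 8.21 CPM in its lowest T0 library, a median of 34.9 CPM and 10144 CPM in its highest, and at T2 it had 9.47, 60.9 and 127.6 CPM. cpi-mir-1a-2-5p had 13.1, 27.2 and 10403 CPM at T0 and 7.57, 85.7 and 136 CPM at T2. All T2 libraries lay within the range of T0 for the first of these entries, and 5 of 8 were above its T0 median, as were 7 of 8 for the second. Without t49 alone the log2 fold changes were -2.78 and -2.63. Without t46 and t49 together, a setting chosen after the values were seen, they were 1.08 and 1.55. The mean of miR-1a was thus lower at T2 with these libraries of T0 and higher without them.

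cpi-mir-133a-1-5p and cpi-mir-133a-2-5p had log2 fold changes of -1.58 and -1.63 for T2 against T0 (standard error 0.88 for both, adjusted p = 0.729 and 0.690 by edgeR). Without t49 they were -0.01 and 0.13. At T0, cpi-mir-133a-1-5p had 0 CPM in t52, a median of 24.1 CPM and 923 CPM in t49, and at T2 it had 0 CPM in t39, a median of 52.1 CPM and 92.7 CPM at most. A count of 0 in t39 allows up to 3 counts, so that its level there was not measurable at this depth. For cpi-mir-206-5p the value was 0.19 ± 0.78 (standard error, adjusted p = 0.956 by edgeR), with a 95% interval from -1.40 to 1.79 that leaves room for a more than 2-fold change in either direction. The median over the 5 members was -1.63 against -0.03 over all entries.

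Between T2 and T1, cpi-mir-1a-1-5p had a log2 fold change of -3.14 and cpi-mir-1a-2-5p of -3.03 (standard errors 1.33 and 1.34, adjusted p = 0.846 for both by edgeR). Their unadjusted p were 0.0263 and 0.0326, and 4.78% of all entries were at or under 0.05. By edgeR and by DESeq2, 0 members and 0% of all entries passed the limits. Without t44 the values were -0.85 and -0.66. For cpi-mir-206-5p the value was -1.25 ± 0.79 (standard error, adjusted p = 0.883 by edgeR), or 0.50 without t44. cpi-mir-133a-1-5p and cpi-mir-133a-2-5p had -0.57 and -0.64 (standard error 0.87 for both, adjusted p = 0.969 and 0.931). The median over the members was -1.25 against -0.11 over all entries. T0 was shared by the first and second comparison, T1 by the first and the last, and T2 by the second and the last, so the values of a member in them are not independent.

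**Figure D4:**
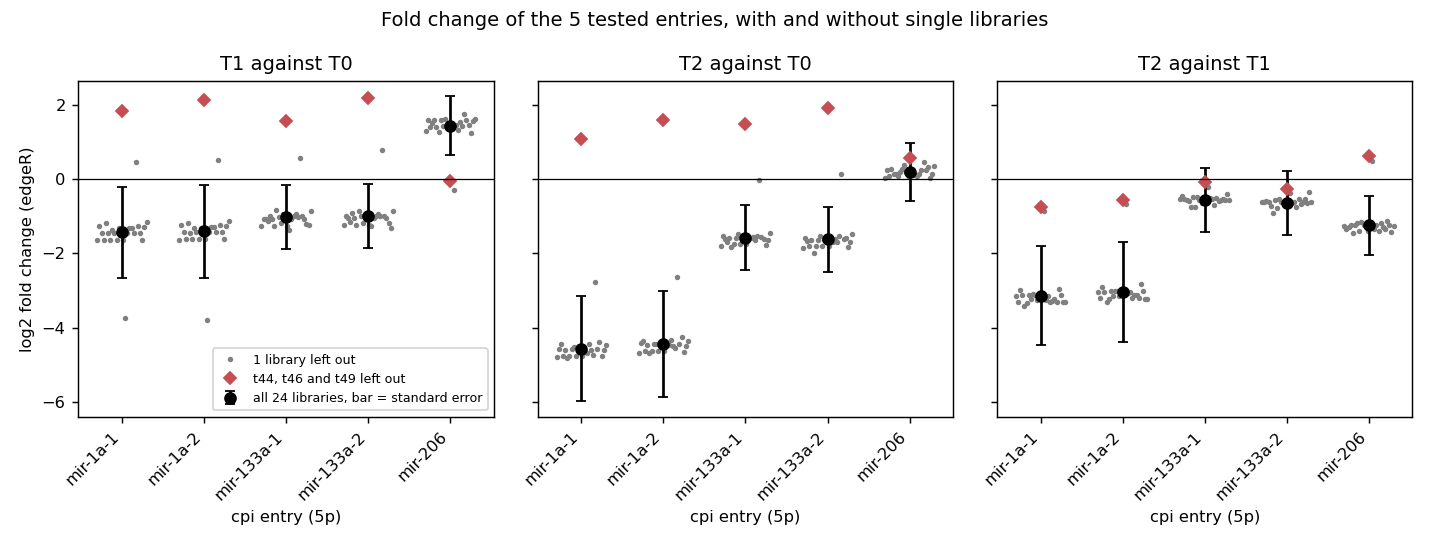
log2 fold change by edgeR of the 5 tested members in the 3 comparisons, with black points for all 24 libraries and bars for 1 standard error, grey points for fits with 1 library left out and red diamonds for fits without t44, t46 and t49. For cpi-mir-1a-1-5p in T2 against T0 the value moves from -4.57 to 1.09 without the 3 libraries, and for cpi-mir-206-5p in T1 against T0 it moves from 1.44 to -0.05.

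With t44, t46 and t49 all left out, again chosen after the values were seen, edgeR called 0 of the 5 members in each comparison, where 1.06% of all entries passed for T1 against T0 and 0% for the others. In T1 against T0 the log2 fold changes were then 1.84 for cpi-mir-1a-1-5p, 2.14 for cpi-mir-1a-2-5p, 1.57 for cpi-mir-133a-1-5p and 2.17 for cpi-mir-133a-2-5p (adjusted p = 0.290, 0.137, 0.633 and 0.124 by edgeR). cpi-mir-206-5p had -0.05. The median of miR-1 in these 21 libraries was 61.8 CPM at T0, 185 CPM at T1 and 209 CPM at T2, and that of miR-133 was 49.1, 136 and 112 CPM. miR-206 had 773, 619 and 1039 CPM. Libraries were left out here for their high values of the members, so that these numbers describe the other libraries and carry no test of the time points.

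Other tissue lists were read beside the bursts, with families for heart and other striated muscle, smooth muscle, red cells, white cells, liver and skin. The striated list held miR-208, the heart family encoded within myosin genes, and miR-499, encoded within a myosin gene of heart and slow muscle. miR-486 and miR-378, also on that list, gave no values here. miR-208 had 29 counts over all libraries, with none in t44 or t49 and 1 on each arm in t46. cpi-mir-499-3p had 2361 CPM in t44, from 492 counts, and 2358 CPM in t38, a T1 library with no burst, from 335 counts. It had 116 CPM in t46 and 28.8 CPM in t49, which was the lowest of the 24. The libraries with high miR-1 therefore lay at opposite ends for this miRNA.

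cpi-mir-499-3p had 28.8 CPM in its lowest T0 library, a median of 164 CPM and 659 CPM in its highest. It had 54.5, 580 and 2361 CPM at T1 and 158, 727 and 1081 CPM at T2. Its log2 fold change was 1.96 for T1 against T0 and 1.41 for T2 against T0 (standard errors 0.67 and 0.66, adjusted p = 0.353 and 0.577 by edgeR). The study itself listed miR-499-3p as higher at T1 and T2 than at T0 by DESeq2. Its paired RT-qPCR, which included further turtles, also found both rises, although the discussion there describes the level at 36 h as close to that before surgery. The hairpin mir-499 was among those with more counts under the name of the usually minor arm. Which strand cpi-mir-499-3p stands for was therefore not settled either. The medians of cpi-mir-499-3p were higher after surgery, as were those of miR-1 and miR-133. The median of miR-206 was lower at T1 (631 CPM) than at T0 (887 CPM) and higher at T2 (1039 CPM). In t40, the highest T0 library of cpi-mir-499-3p, miR-1 had 172 CPM, against a T0 median of 78.0 CPM. That was the highest miR-1 level among the T0 libraries other than t46 and t49. In t49, the highest of all in miR-1, cpi-mir-499-3p was lowest.

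The red cell list (miR-451 and miR-144) had 1234 CPM in t44, the lowest of 24 libraries, 7987 CPM in t46 and 10570 CPM in t49, in ranks 9 and 7 from the top. Over all libraries it ran from 1234 to 26672 CPM. The white cell list (miR-223 and miR-142) was at 1805, 2277 and 4192 CPM in t44, t46 and t49, within a range of 1465 to 7322 CPM. The liver list (miR-122, miR-192 and miR-194) was at 10449, 6182 and 25350 CPM, within 4361 to 111512 CPM. The smooth muscle list (miR-143 and miR-145) was at 720, 626 and 975 CPM, within 320 to 2570 CPM, and the skin list (miR-203 and miR-205) at 197, 344 and 300 CPM, within 124 to 388 CPM. None of these lists had its highest value over the 24 libraries in t44, t46 or t49. Within T0, however, the smooth muscle list was highest in t49, where the next library had 715 CPM, and within T1 it was lowest in t44. For this list 8 of 8 libraries at T1 and 8 of 8 at T2 lay above the median of T0. The part of these lists in the bursts was not tested.

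**Figure D5:**
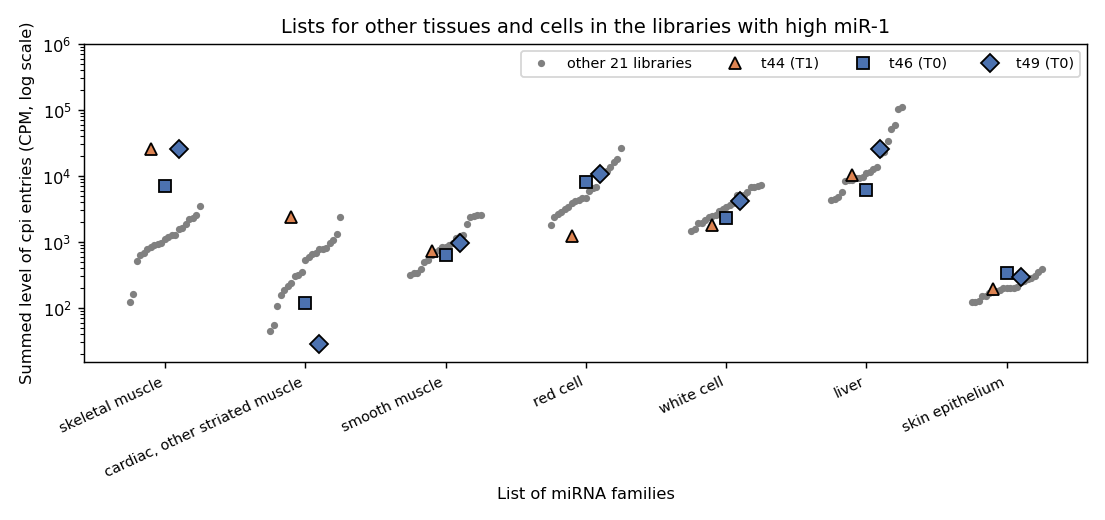
Summed level of the cpi entries of 7 lists of miRNA families in the 24 libraries (CPM, log scale), with grey points for 21 libraries and marked symbols for t44, t46 and t49. The marked libraries are the 3 highest for the skeletal muscle list, at 25721, 7165 and 25541 CPM, and lie within the range of the others or at its lower end for most other lists.

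Across the 24 libraries, the cpi entries outside the members whose levels were most like the sum of the 3 families were named by Spearman's correlation of log2(CPM + 1), among 193 entries and as a description. cpi-mir-193a-3p came first with rho = 0.86. Its own level ran from 141 to 1126 CPM with a median of 497 CPM, and it was highest in t40 rather than in t44 or t49. cpi-let-7b-3p and cpi-let-7b-5p followed with 0.681 each, and they had nearly the same counts. cpi-mir-212-3p had 0.643 and cpi-mir-23a-3p 0.627. The libraries differ in depth and share turtles, and the sum follows miR-206 in most of them. Taken alone, miR-206 was most like cpi-mir-193a-3p (0.827), miR-1 was most like cpi-mir-212-3p (0.621) and miR-133 was most like cpi-mir-29a-2-3p (0.518).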

How the data were processed

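The authors clipped adapters with Cutadapt (maximum error rate 0.15), discarded reads under 14 nt and aligned the rest with BWA 0.7.12 to saurian precursors of miRBase 22.0. The deposited values are raw read counts, whole numbers per entry and library, and every one of 1994 entries stands in 2 rows (3988 in all). The labels name another extraction kit than the one the study selected, and which was used was not settled.

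One row per entry was kept here. edgeR 4.0.16 in R 4.3.3 filtered low counts (filterByExpr), normalized by TMM and tested each pair of time points by quasi-likelihood in 1 model over 24 libraries, with Benjamini-Hochberg adjustment over 690 entries. The common dispersion was 0.453. Standard errors and 95% intervals were taken from the F statistic and its degrees of freedom. Correlations and exact permutation tests, two-sided, used log2(CPM + 1), with 12870 assignments for 8 against 8. The edgeR test was tried on simulated data for T1 against T0, drawn with the common dispersion for every entry and without single high libraries. Also used were DESeq2 1.42.0, Python 3.11.15, numpy 2.4.6, scipy 1.17.1, pandas 2.3.3 and matplotlib 3.10.9.

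Members, lists and alternatives were chosen with earlier results of these data known. Named were every cpi entry of the 3 families, those of miR-208, miR-499, miR-486 and miR-378, and the 5 entries most like the sum. Alternatives were DESeq2, other normalizations and filters, both deposited rows, cpi entries alone, sums over species, a robust fit, 2 time points only, and each library left out. Leaving out t46 and t49, or also t44, and summing copies were added after seeing the data. Depth limits low levels, since T2 replicate t39 had 5837 cpi counts.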

Additional observations from a re-analysis of the deposited data

Results flagged for a closer look

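Among 24 groups of 8 libraries, 5 entries and the 3 family sums at 3 time points, 11 had a highest library separated from the next by more than 0.526 of the whole range, Dixon's limit for 8 values. For normally distributed values chance flags about 1 in 20 groups. The gaps were taken on CPM, which were strongly skewed here, so the rate by chance was not known and can be higher. Entries and sums also share counts, so these are not 11 separate findings. T0 replicate t49 was that library for cpi-mir-1a-1-5p (0.713), cpi-mir-1a-2-5p (0.717), cpi-mir-133a-1-5p (0.758), cpi-mir-133a-2-5p (0.783), summed miR-1 (0.714) and summed miR-133 (0.786). T1 replicate t44 was that library for cpi-mir-1a-1-5p (0.925), cpi-mir-1a-2-5p (0.933), cpi-mir-206-5p (0.849), summed miR-1 (0.935) and summed miR-206 (0.849). In T0 the gap of t49 was reduced by t46, the second high library. None of the groups of T2 passed the limit.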

How the results depend on the processing

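Of the 5 tested members, 0 were called in any comparison under every alternative run, except that 3 were called for T1 against T0 without t46 and t49 together (cpi-mir-1a-1-5p, cpi-mir-1a-2-5p and cpi-mir-133a-2-5p, adjusted p = 0.0322 each by edgeR). Those libraries were left out for their high values at T0, and with t44 left out too 0 members were called. Over all entries, T1 against T0 had 4 calls. It had 1 with cpi entries alone, 0 with counts summed over species, with library totals alone, with no filter and with only the 2 time points, 16 by DESeq2, 25 without t46 and t49 and 8 without t44 as well. Leaving out 1 library gave 0 to 6, with 6 without t49 and 0 without t31, t34, t37, t43, t46, t32, t38, t41, t47, t53, t33 or t36. T2 against T0 had 0 calls, and 1 with cpi entries alone, counts summed over species, library totals alone, DESeq2 or only the 2 time points. Leaving out 1 library gave 0 to 1 there, with 1 without t32. T2 against T1 had 0 calls throughout.

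The direction of the members depended on t49 and t44. Of 360 log2 fold changes with 1 library left out, 7 reversed, and of 210 under other alternatives, 29 did. The cause was not tested. For T1 against T0, leaving out 1 library gave -3.73 (without t44) to 0.45 (without t49) for cpi-mir-1a-1-5p, -3.79 to 0.50 for cpi-mir-1a-2-5p, -1.37 to 0.57 for cpi-mir-133a-1-5p, -1.32 to 0.79 for cpi-mir-133a-2-5p and -0.30 (without t44) to 1.77 (without t49) for cpi-mir-206-5p. For T2 against T0 the ranges were -4.81 to -2.78, -4.68 to -2.63, -1.82 to -0.01, -1.98 to 0.13 and 0.02 (without t52) to 0.46 for the same entries, with the highest value of each without t49. For T2 against T1 they were -3.40 to -0.85, -3.31 to -0.66, -0.75 to -0.22, -0.92 to -0.36 and -1.45 to 0.50.

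On the scale of log2(CPM + 1), the mean differences of T1 against T0 were 0.59, 0.61, 0.54 and 1.20 for cpi-mir-1a-1-5p, cpi-mir-1a-2-5p, cpi-mir-133a-1-5p and cpi-mir-133a-2-5p, those of T2 against T0 were 0.12 and 0.16 for the miR-133a entries, and that of T2 against T1 was 0.018 for cpi-mir-206-5p. DESeq2 reversed cpi-mir-133a-2-5p to 0.94 for T1 and 0.25 for T2 against T0, and cpi-mir-206-5p to -0.35 for T1 against T0 and 0.53 for T2 against T1. Its default settings can replace single outlying counts in groups of 8 libraries. Its values may therefore not use the high counts of t44 and t49, and which counts were replaced was not examined. Without t46 and t49, T1 against T0 gave 4.22, 4.59, 2.01 and 2.50 for the miR-1a and miR-133a entries in the order above, and T2 against T0 gave 1.08, 1.55, 1.44 and 1.86. Without t44 as well, the values were 1.84, 2.14, 1.57 and 2.17 for T1 and 1.09, 1.58, 1.48 and 1.92 for T2, and cpi-mir-206-5p had -0.050 for T1 against T0 and 0.62 for T2 against T1. With copies summed, miR-1a had -1.48 for T1 and -4.58 for T2 against T0.

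The libraries with a burst were the same with limits of 5 and 20 times the median and with CPM over cpi counts without TMM. The 9 correlations kept their sign and their side of the limit with CPM over cpi counts without TMM and a pseudocount of 10, changed together. No paired analysis was possible because no label ties a library to a turtle and no library number recurs between time points.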
